A study of Mus musculus with 24 samples.

Results

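The interferon response genes followed here are 34 genes that mammalian cells switch on after interferon signalling. They were taken from a list chosen with earlier results of these data known, and matched by symbol to the 21960 genes of the deposited count table. A row was found for 33 of the 34, and Mx2 is not analysed here. Counts were high enough to test 18 of them, a filter that a gene could pass through a single group, and the other 15 are described by their counts alone. They were measured in RNA of extracellular vesicles, membrane-enclosed particles that cells release, precipitated with ExoQuick from the plasma of male C57BL/6J mice, an inbred strain, and sequenced without poly-A selection or removal of ribosomal RNA. The 4 groups of 6 libraries were mice 15 days after bile duct ligation, mice 15 days after sham surgery, mice 8 days after ligation and mice 8 days after sham surgery. Ligation blocks bile flow, which causes cholestasis and in time liver fibrosis, and the comparison asks which vesicle transcripts differ in ligated mice. The tissue label reads liver although the protocol describes plasma vesicles, and a vesicle preparation from blood mixes the output of many cell types. The labels number 6 samples per group without stating that each came from a separate animal, so p-values measure the spread between these samples.

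Interferons are secreted proteins that signal viral or microbial nucleic acid, or tissue injury, to neighbouring cells. Type I interferons (interferon alpha and beta) bind a receptor made of IFNAR1 and IFNAR2, whose kinases JAK1 and TYK2 activate transcription factors of the STAT family, among them STAT2. With IRF9 these form a complex that binds the interferon-stimulated response element, ISRE, in the promoters of interferon-stimulated genes. Interferon gamma acts through its own receptor and mainly through a different element, GAS. The products sense foreign RNA, block its translation, degrade it, or modify membranes and proteins. In liver, interferon-stimulated genes are known above all from viral hepatitis and from macrophages and other immune cells that respond to gut-derived products.

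The ISRE was looked for in RefSeq promoters of GRCm38.p6, from 250 bases before to 50 bases after each annotated start, as the letters GAAA, any 2 bases and GAAA again, on either strand (TTTC, any 2 bases and TTTC on the other). Promoters were matched for 25 of the 33 members, and 15 of these 25 genes (60%) held the core, against 3.44% of all 32851 promoters and 3.99% of all 27025 genes in the RefSeq promoter set. A match is a description of the letters and not a bound site. Overlapping matches were counted apart. The GAS letters, TTC, any 3 bases and GAA, which read the same on both strands, were present for 7 of 25 (28%), against 8.30% of all promoters and 9.55% of all genes in that set. The promoters below are those of Isg15 and Rsad2, which came after Ifitm3 in level per length, and of Oasl2 and Irf7, the members called after ligation in the averaged comparison described further on. Capitals mark the ISRE core, which these windows held for Isg15 and Rsad2, and did not hold for Oasl2 and Irf7. In Isg15, 3 overlapping matches began 78 to 66 bases before the start (chr4:156200769-156201068, minus strand), and in Rsad2 a single match began 120 bases before it (chr12:26456403-26456702, minus strand). The Oasl2 window was chr5:114896684-114896983 on the plus strand, and that of Irf7 was chr7:141266375-141266674 on the minus strand.
Isg15: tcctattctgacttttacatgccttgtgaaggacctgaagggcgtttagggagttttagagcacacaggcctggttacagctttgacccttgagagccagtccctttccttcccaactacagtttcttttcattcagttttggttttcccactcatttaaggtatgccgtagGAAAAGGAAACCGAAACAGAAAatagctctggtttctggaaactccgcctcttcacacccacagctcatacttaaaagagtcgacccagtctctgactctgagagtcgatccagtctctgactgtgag
Rsad2: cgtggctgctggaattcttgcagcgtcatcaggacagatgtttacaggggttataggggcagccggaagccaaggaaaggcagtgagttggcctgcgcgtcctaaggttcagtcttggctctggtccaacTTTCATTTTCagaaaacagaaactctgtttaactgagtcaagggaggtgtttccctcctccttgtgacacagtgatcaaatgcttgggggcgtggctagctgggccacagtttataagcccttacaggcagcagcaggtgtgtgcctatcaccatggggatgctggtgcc
Oasl2: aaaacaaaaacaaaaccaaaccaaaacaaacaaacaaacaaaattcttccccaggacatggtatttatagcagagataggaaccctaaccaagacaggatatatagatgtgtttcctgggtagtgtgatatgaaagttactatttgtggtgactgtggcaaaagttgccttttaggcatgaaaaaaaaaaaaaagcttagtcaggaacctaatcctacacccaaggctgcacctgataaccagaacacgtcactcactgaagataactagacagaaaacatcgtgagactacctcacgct
Irf7: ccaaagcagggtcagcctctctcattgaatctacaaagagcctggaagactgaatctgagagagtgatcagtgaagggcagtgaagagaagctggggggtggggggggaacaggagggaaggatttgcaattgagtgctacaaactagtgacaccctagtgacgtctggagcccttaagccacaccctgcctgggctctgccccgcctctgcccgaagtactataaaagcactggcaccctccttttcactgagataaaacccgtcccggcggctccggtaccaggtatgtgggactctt

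Total counts per library ran from 315404 to 465744 in ligated and from 157133 to 351201 in sham mice at day 15, and from 167939 to 937963 in ligated and from 101733 to 824640 in sham mice at day 8. At day 8, libraries 1 to 3 held fewer counts than libraries 4 to 6, in ligated and in sham mice. The 33 members together took a small share of the counts. That share averaged 0.10% ± 0.0123 in ligated and 0.104% ± 0.0110 in sham mice at day 15, and 0.146% ± 0.0536 in ligated and 0.118% ± 0.00384 in sham mice at day 8 (SD, n = 6 each). Rsad2 alone made up 15.9%, 12.5%, 21.3% and 15.9% of the members' counts in these 4 groups, and Ifitm3 17.6%, 16.3%, 13% and 12.1%. Ligated minus sham, the share differed by -0.00406 percentage points at day 15 (pooled SD 0.0117) and by 0.0286 percentage points at day 8 (pooled SD 0.0380). Both differences were smaller than the spread between libraries.

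In GRCm38 (GENCODE M21), the 8 members described in full below lie at chr4:156199424-156200818 (Isg15, minus strand), chr7:141262706-141266481 (Irf7, minus), chr5:114896936-114912234 (Oasl2, plus), chr12:26442746-26456452 (Rsad2, minus), chr2:173206612-173218923 (Zbp1, minus), chr7:141009586-141010770 (Ifitm3, minus), chr5:120753098-120777661 (Oas3, minus) and chr3:142620602-142638008 (Gbp2, plus). All are protein-coding genes by that annotation.

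Levels were compared between genes per kilobase of merged exons, as normalised CPM (reads per 1e6 counted reads, scaled between libraries) per kilobase. Ifitm3, a membrane protein that blocks the fusion of viruses entering cells, was highest, at 311 ± 80.9 in ligated and 251 ± 32.8 in sham mice at day 15, and 300 ± 97 in ligated and 223 ± 44.2 in sham mice at day 8 (SD, n = 6 each). Isg15 and Rsad2 came next and did not differ from each other beyond their spread. Isg15 averaged 40.6 ± 16.3 CPM per kilobase in ligated and 32.3 ± 14.1 in sham mice at day 15, and 103 ± 53.2 in ligated and 41.5 ± 22.4 in sham mice at day 8. For Rsad2 the level per kilobase was 42.2 ± 15.3 in ligated and 32.9 ± 20.5 in sham mice at day 15, and 88.0 ± 39.5 in ligated and 39.3 ± 23.5 in sham mice at day 8. Below these, Ifit3, Gbp2, Bst2 and Irf7 formed a group whose means over the 4 groups ran from 21.8 down to 16.9 CPM per kilobase and whose spreads overlapped. At the low end were Mx1, Ifi44, Oas2 and Cxcl10, with means of 1.00, 0.748, 0.557 and 0.415 CPM per kilobase.

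**Figure D1:**
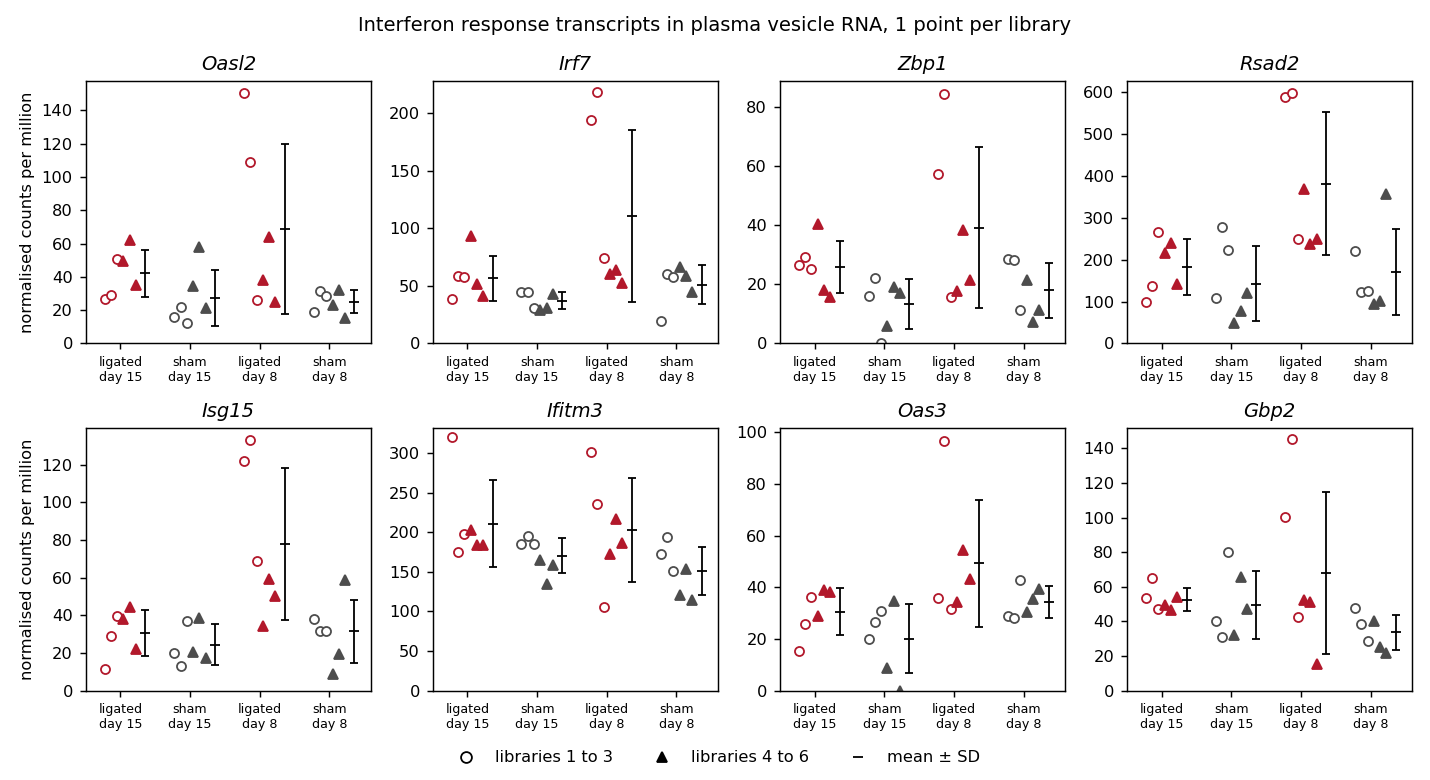
Normalised CPM (vertical axes, from 0) of the 8 members described in full, with 1 point per library; open circles are libraries 1 to 3, filled triangles libraries 4 to 6, and bars mean ± SD of 6 libraries. In ligated mice at day 8 the libraries numbered 1 and 2 lie highest for Oasl2, Irf7, Zbp1, Rsad2, Isg15 and Gbp2, for example at 588 and 599 CPM of Rsad2.

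At day 8 the members leaned to higher levels in ligated mice, without any passing the adjusted test. Since the list was chosen with earlier results known, the members' shares set beside all genes are a description and not a test. Of the 18 tested, 15 had a positive log2 fold change (ligated over sham), against 52.5% of all 4112 tested genes, and the median over the 18 was 0.44, against 0.02 over all genes. With edgeR's quasi-likelihood test and an adjusted p under 0.05, 0 of 18 members were called, where 3.14% of all tested genes were (2.77% higher and 0.365% lower). At an unadjusted p under 0.05 there were 8 of 18 (44.4%), against 14.3% of all genes: Oasl2, Isg15, Rsad2, Irf7, Gbp2, Zbp1 and Ifitm3 on the higher side and Trim25 on the lower. At day 15 the lean was weaker. There 10 of 18 were positive, the median was 0.12 against -0.02 over all genes, 0 of 18 were called where 4.55% of all genes were (3.48% higher and 1.07% lower), and 0 of 18 had an unadjusted p under 0.05, against 18.1% of all genes. Averaged over both days, 2 of 18 (11.1%) were called, Oasl2 and Irf7, both higher in ligated mice. Over all genes 10.6% were called in that comparison, 7.1% higher and 3.5% lower, so the members' share was near the background. DESeq2 called 1 member at day 8, Oasl2 (4.52% of all genes), and 0 at day 15 (5.2%). In the mean of both days it called 3, Oasl2, Irf7 and Zbp1 (1.02, adjusted p = 0.0334), where 11.4% of all genes were called.

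The library numbers bear on the day 8 result. Deviations from group means correlated between ligated and sham libraries of the same number in 6 of 6 numbers at day 8 (0.165 to 0.327). At day 15 they did in 1 of 6, so the numbers were read as pairs at day 8 only. Low and high library numbers of day 8 also differed in depth and in platelet sums, in ligated and in sham mice. Libraries of different numbers were not compared, so the check cannot tell pairs from that split. Whether the numbers are pairs was not tested, and the blocked fit is an alternative to the main fit. With the number as a block, the edgeR fit called 3 members at day 8: Isg15 (log2 fold change 1.19, adjusted p = 0.0189), Oasl2 (1.07, adjusted p = 0.0314) and Rsad2 (1.19, adjusted p = 0.0442). That fit called 4.91% of all genes. The average of both days also used the block at day 15. There the blocked fit called the same 3, with adjusted p of 0.0328 for Isg15, 0.0133 for Oasl2 and 0.0267 for Rsad2. It no longer called Irf7 (0.64, adjusted p = 0.0777), and it called 13% of all genes in that average.

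**Figure D2:**
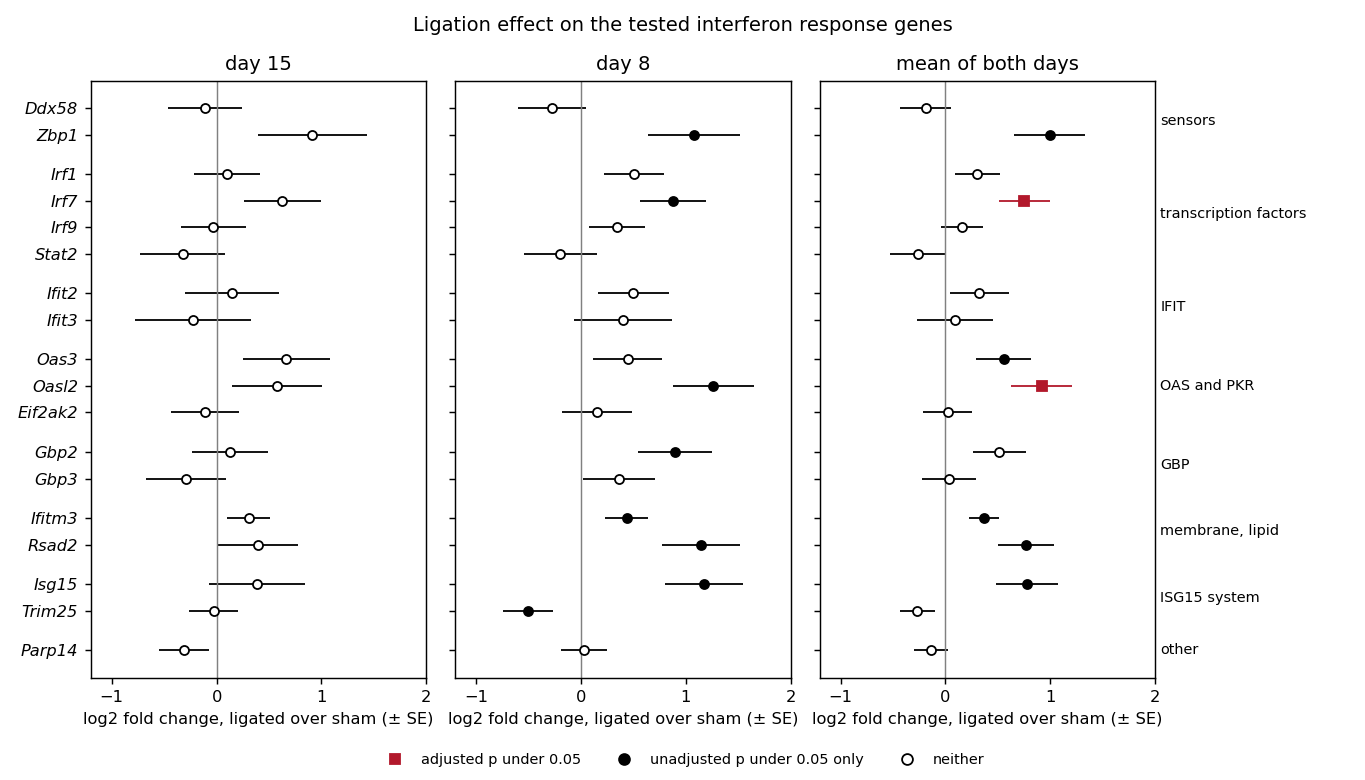
Log2 fold change of ligated over sham mice (horizontal axes, ± SE from edgeR) for the 18 tested members, grouped by role, at day 15, at day 8 and as the mean of both days. Red squares mark the 2 members called in the mean of both days, Oasl2 and Irf7; filled circles mark an unadjusted p under 0.05 only, and at day 8 most members lie right of 0.

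Among the sensors, Zbp1, which detects Z-form nucleic acid and can start cell death, ran from 15.8 to 40.6 CPM (median 26.0) in ligated and from 0 to 22.1 (median 16.6) in sham mice at day 15. At day 8 Zbp1 ran from 15.8 to 84.7 CPM (median 29.9) in ligated and from 7.12 to 28.7 (median 16.5) in sham mice. The groups overlapped on both days, and 5 of 6 ligated libraries lay above the sham median each time. Its log2 fold change was 0.91 (SE 0.52, adjusted p = 0.350) at day 15, 1.08 (SE 0.44, adjusted p = 0.236) at day 8 and 1.00 (SE 0.34, adjusted p = 0.0528) averaged over both days. Ddx58, the RNA helicase RIG-I that recognises viral RNA ends, had log2 fold changes of -0.11 and -0.27 at days 15 and 8, and neither passed the test. The helicases Ifih1 (MDA5) and Dhx58 (LGP2) were below the count filter.

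Of the 4 transcription factors, Irf7, which amplifies type I interferon production, was the one called. At day 15 it ran from 38.2 to 92.9 CPM (median 54.8) in ligated and from 28.9 to 44.3 (median 36.8) in sham mice. At day 8 the values were 52.7 to 218 CPM (median 68.9) in ligated and 19.1 to 66.3 (median 58.0) in sham mice. At day 15 all 6 ligated libraries lay above the sham median and 4 lay above the highest sham library, whereas at day 8 the 2 libraries numbered 1 and 2 stood apart at 194 and 218 CPM and the other 4 lay between 52.7 and 73.9. Averaged over both days Irf7 rose by 0.75 on the log2 scale (SE 0.24, adjusted p = 0.0430). Its fold change was 0.63 (SE 0.37, adjusted p = 0.382) at day 15 and 0.88 (SE 0.32, adjusted p = 0.165) at day 8. Irf7 shares 45 exonic bases with Phrf1 on the opposite strand, and no source used here says whether the counting used strand, so reads from that stretch cannot be told apart. Exons of Irf1 overlap Gm17334, those of Irf9 overlap Rnf31 and those of Cxcl10 overlap Art3, with the same limit. Irf1, induced by interferon gamma, and Irf9 and Stat2, parts of the ISRE-binding complex, had day 8 values of 0.50, 0.34 and -0.20, and day 15 values of 0.10, -0.03 and -0.32, none of which passed.

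The OAS and PKR group responds to double-stranded RNA. Oasl2, an interferon-induced relative of the 2'-5' oligoadenylate synthetases, ran from 26.7 to 62.3 CPM (median 42.1) in ligated and from 12.4 to 57.8 (median 21.7) in sham mice at day 15. At day 8 it ran from 25.2 to 151 CPM (median 51.1) in ligated and from 15.3 to 32.0 (median 25.8) in sham mice. All 6 ligated libraries of day 15 and 5 of 6 of day 8 lay above their sham median, with overlap on both days. Oasl2 rose by 0.92 on the log2 scale in the mean of both days (SE 0.29, adjusted p = 0.0377), with 0.57 (SE 0.43, adjusted p = 0.517) at day 15 and 1.26 (SE 0.39, adjusted p = 0.0759) at day 8. Oas3, a synthetase of the 2'-5' oligoadenylates that activate the nuclease RNase L, ran from 15.3 to 38.9 CPM (median 32.5) in ligated and from 0 to 34.7 (median 23.3) in sham mice at day 15. Its day 8 values were 31.7 to 96.8 (median 39.5) in ligated and 28.2 to 42.9 (median 32.9) in sham mice. The ligated libraries reached higher at both days, and the log2 fold changes of 0.67 (SE 0.41) and 0.44 (SE 0.33) did not pass, nor did the mean of 0.56 (adjusted p = 0.182). Eif2ak2, the kinase PKR that halts translation, had values of -0.11 at day 15 and 0.15 at day 8.

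Of the membrane and lipid effectors, Rsad2 encodes viperin, an enzyme at lipid droplets and the endoplasmic reticulum that limits viral replication. It ran from 99.3 to 267 CPM (median 179) in ligated and from 49.2 to 279 (median 114) in sham mice at day 15, where the groups overlapped over most of their range. At day 8 Rsad2 ran from 236 to 599 CPM (median 309) in ligated and from 95.2 to 357 (median 125) in sham mice, and 5 of 6 sham libraries lay below the lowest ligated one. The log2 fold change was 1.14 (SE 0.37, adjusted p = 0.103) at day 8 and 0.39 (SE 0.39, adjusted p = 0.654) at day 15, with a mean of 0.77 (adjusted p = 0.0680). Ifitm3 ran from 175 to 321 CPM (median 191) in ligated and from 135 to 195 (median 175) in sham mice at day 15, and from 106 to 301 (median 202) in ligated and from 114 to 194 (median 152) in sham mice at day 8. It had 5 of 6 ligated libraries above the sham median on each day. Its log2 fold changes were 0.31 (SE 0.20, adjusted p = 0.467) at day 15 and 0.43 (SE 0.20, adjusted p = 0.326) at day 8, and the mean was 0.37 (adjusted p = 0.103). Bst2, tetherin, which holds budding virus at the cell surface, was below the filter.

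In the ISG15 system, a ubiquitin-like modifier and its enzymes, Isg15 encodes the modifier. Isg15 ran from 11.5 to 44.1 CPM (median 33.4) in ligated and from 13.3 to 38.5 (median 20.2) in sham mice at day 15. The day 8 range was 34.2 to 133 CPM (median 63.9) in ligated and 8.65 to 58.5 (median 31.6) in sham mice, with all 6 ligated libraries above the sham median and 4 above the highest sham library. Its log2 fold change was 0.38 (SE 0.46, adjusted p = 0.719) at day 15 and 1.17 (SE 0.37, adjusted p = 0.0920) at day 8, and the mean was 0.78 (adjusted p = 0.0917). Trim25, a ligase that acts on RIG-I, was the member with an unadjusted p under 0.05 on the lower side at day 8. It ran from 30.3 to 82.7 CPM (median 45.9) in ligated and from 47.8 to 106 (median 75.0) in sham mice at day 8, with 1 of 6 ligated libraries above the sham median, and its log2 fold change was -0.51 (unadjusted p = 0.0370, adjusted p = 0.304). At day 15 the Trim25 value was -0.03.

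The guanylate binding proteins are interferon-induced GTPases that attack microbe-containing vacuoles. Gbp2 ran from 46.7 to 64.8 CPM (median 51.4) in ligated and from 31.0 to 80.3 (median 43.6) in sham mice at day 15, where the ligated values lay inside the sham range. At day 8 it ran from 15.6 to 145 CPM (median 51.6) in ligated and from 21.6 to 47.8 (median 33.7) in sham mice, so both ends of the ligated group lay outside the sham range. Its log2 fold changes were 0.13 (SE 0.36, adjusted p = 0.898) at day 15 and 0.90 (SE 0.35, adjusted p = 0.230) at day 8. Gbp3 had values of -0.29 and 0.36 at days 15 and 8. The IFIT proteins bind foreign RNA caps and ends, and Ifit2 and Ifit3 had log2 fold changes of 0.15 and -0.22 at day 15 and 0.50 and 0.40 at day 8. Parp14, an ADP-ribosyltransferase, had values of -0.31 and 0.03. None of these passed the test. How the counting divided reads between Ifit3 and Ifit3b, Gbp2 and Gbp2b, Ifit1 and its near copies, or Oas1a and Oas1g is not stated, so the level of each is uncertain.

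Most members were highest in a pair of ligated libraries of day 8. In ligated mice at day 8, the libraries numbered 1 and 2 held the group's highest value for 14 of the 18 tested members, against 39.2% of all tested genes. Libraries 1 to 6 of that group had 15, 16, 10, 11, 17 and 9 of 18 members above the sham median of the day, so library 5 was high as well, by smaller amounts. These libraries 1 and 2 were also the group's shallowest. Of the summed markers, those of red cells and Kupffer cells were highest in these 2 libraries. Red cell transcripts had sums of 159879 and 199181 CPM, against 86333 to 134849 CPM in the other 4. Kupffer cell sums were 86.1 and 127 CPM, against 52.7 to 84.5 CPM, so library 1 lay barely above the highest of the others. The Kupffer cell sums rest on 193 counts over the 6 libraries. Most of these came from C1qa, C1qb and C1qc, and Clec4f had 0, so the sums do not describe every marker of the list. Neutrophil sums were 1514 and 1815 CPM, against 749 to 2150 CPM. Platelet sums ran from 1204 to 2801 CPM in ligated libraries 1 to 3 of day 8 and from 3938 to 7836 CPM in libraries 4 to 6. The part of these in the result was not tested. Within day 8, libraries 1 to 3 gave log2 fold changes of 1.64 for Isg15, 1.61 for Irf7 (adjusted p = 0.0464, edgeR, where 1.09% of all genes were called), 1.66 for Oasl2, 1.63 for Rsad2, 1.33 for Gbp2 and 1.23 for Zbp1. Libraries 4 to 6 gave 0.67 for Isg15, 0.04 for Irf7, 0.83 for Oasl2, 0.60 for Rsad2, 0.40 for Gbp2 and 0.88 for Zbp1, with no member called. The direction was the same in both sets for these 6, and for 15 of all 18. It was opposite for Stat2 (0.96 in libraries 1 to 3 and -0.92 in libraries 4 to 6), Irf9 (0.99 and -0.15) and Parp14 (0.31 and -0.21). The size was larger in libraries 1 to 3 for 16 of 18, and larger in libraries 4 to 6 for Ifit2 (0.18 and 0.58) and Ifitm3 (0.25 and 0.55). The difference between the sets was not tested. Without ligated library 1 of day 8, the mean effect over both days was 0.77 for Oasl2 (adjusted p = 0.0641) and 0.64 for Irf7 (adjusted p = 0.0785). Without library 2 these were 0.83 (adjusted p = 0.0670) and 0.59 (adjusted p = 0.0843), so neither call held without either library. Over the 24 refits that each left out a library, Oasl2 was called in 11 (log2 fold change 0.77 to 1.08, adjusted p 0.0137 to 0.0747 over all 24) and Irf7 in 9 (0.59 to 0.84, adjusted p 0.0199 to 0.0889), and the direction was the same in all. Both calls were kept without ligated library 1 or 6 or sham library 2 of day 15, and without ligated library 3, 4 or 6 of day 8, and at least 1 of them was lost without each of the other libraries. Within day 8, other refits gained calls. Without sham library 6, Rsad2 (1.54, adjusted p = 0.0172) and Isg15 (1.60, adjusted p = 0.0226) were called, without ligated library 6, Oasl2 (1.5, adjusted p = 0.0282) and Gbp2 (1.18, adjusted p = 0.0315), and without ligated library 4, Isg15 (1.36, adjusted p = 0.0440). In the mean of both days Zbp1 was called without ligated library 6 or sham library 2 of day 15, and without ligated library 3, 4 or 6 or sham library 2 of day 8, with adjusted p between 0.0371 and 0.0470.

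**Figure D3:**
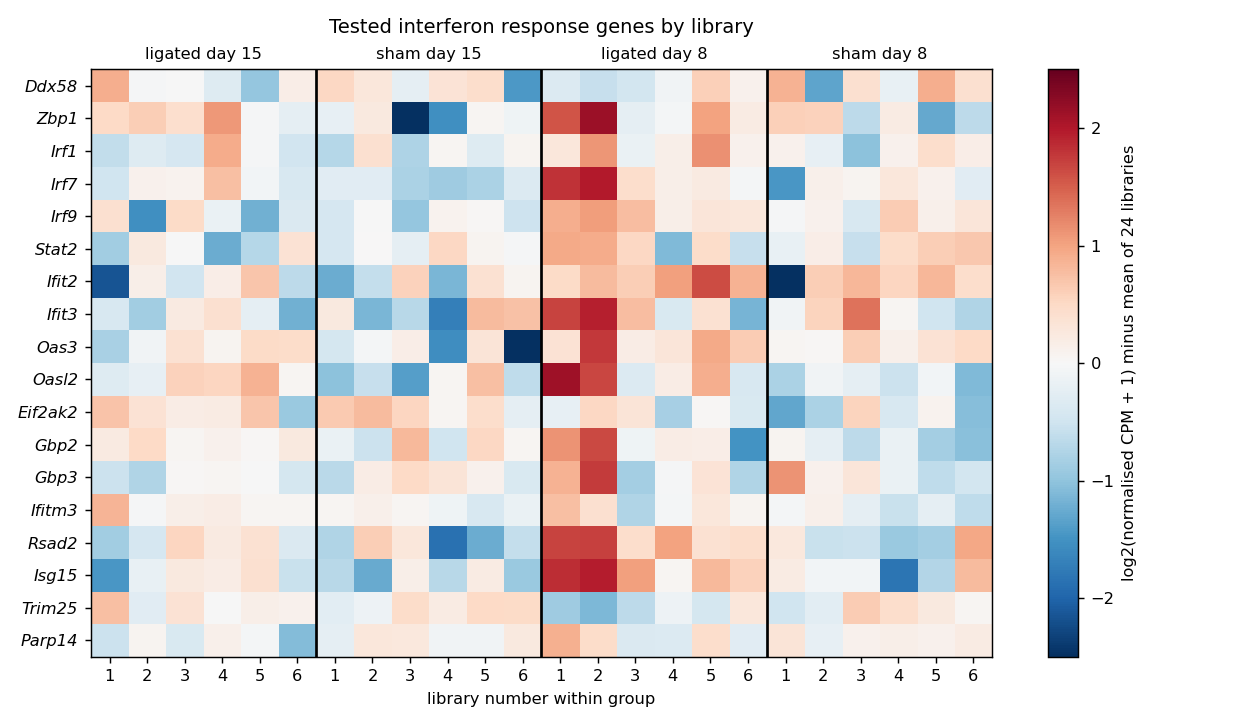
Log2(normalised CPM + 1) of the 18 tested members (rows, by role) in the 24 libraries (columns, by group and number), minus the gene's mean over all libraries; red is above and blue below that mean. The red block in ligated libraries 1 and 2 of day 8 spans Zbp1, Irf7, Ifit3, Oasl2, Gbp2, Rsad2 and Isg15, and the same libraries are blue for Trim25.

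The ligation effect at day 15 minus that at day 8 was tested as an interaction. It was negative for 15 of 18 members, with a median of -0.35 against -0.04 over all genes, and 0 of 18 members and 0% of all genes were called by edgeR. At an unadjusted p under 0.05 there were 0 members, against 5.69% of all genes, so the smaller day 15 values of Isg15 (difference -0.79, SE 0.59), Gbp2 (-0.77, SE 0.51), Rsad2 (-0.75, SE 0.54) and Oasl2 (-0.69, SE 0.58) are not shown to differ from day 8. Between ligated mice of day 15 and day 8, 15 of 18 members were lower at day 15, with a median of -0.53 against -0.04 over all genes, and 0 were called, where 4.35% of all genes were (2.26% higher and 2.09% lower). The unadjusted p was under 0.05 for 6 of 18 (33.3%, against 17.2% of all genes): Ifit2 (-1.15), Isg15 (-1.15), Rsad2 (-1.03), Irf9 (-0.80) and Irf7 (-0.79) on the lower side and Trim25 (0.51) on the higher. In sham mice the same comparison had a median of -0.21 against 0.02, with 0 members and 0% of all genes called by edgeR, and an unadjusted p under 0.05 for Oas3 (-0.84) and Eif2ak2 (0.72), 11.1% of the members against 10.7% of all genes. Between the same ligated groups, 4 of 8 platelet markers (list median -1.55) and 4 of 7 red cell markers (-0.83) were called lower at day 15, and 7 of 7 hepatocyte markers (2.85) higher, and their part in the members' values was not tested. DESeq2 called 0 members in the interaction and in both time comparisons. The day 15 and day 8 groups may also differ in preparation or sequencing run, which the labels do not record by sample and which cannot be told apart from time.

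The 15 members below the filter were summed over libraries, and their ratios of normalised counts carry exact intervals that cover counting error only and not the spread between animals. Together they had 286 counts in ligated and 220 in sham mice at day 15, a ratio of 1.01 (95% interval 0.847 to 1.21), and 544 in ligated and 485 in sham mice at day 8, a ratio of 1.16 (1.03 to 1.32). Ifit1, which binds RNA lacking the host cap methylation, stood out with 35 counts in ligated and 7 in sham mice at day 15, a ratio of 3.90 (1.71 to 10.4). Every ligated library of day 15 had Ifit1 reads, from 9.72 to 28.5 CPM (median 18.3), whereas 2 of 6 sham libraries had none and the rest reached 16.1 CPM. At day 8 it had 47 counts in ligated and 26 in sham mice, a ratio of 1.87 (1.14 to 3.15). When no genes were filtered out, edgeR called Ifit1 in the mean of both days (log2 fold change 1.48, adjusted p = 0.00733), as well as Zbp1 (adjusted p = 0.0301) and 3 other members, where 5.56% of all genes were called.

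Ifih1, which senses long double-stranded RNA, had 67 counts in ligated and 28 in sham mice at day 8 (ratio 2.48, 1.57 to 4.00), and 27 in ligated and 29 in sham mice at day 15 (0.726, 0.413 to 1.27). Oas1a had 58 counts in ligated and 36 in sham mice at day 8 (ratio 1.67, 1.08 to 2.60). Bst2 was on the lower side at day 15, with 26 counts in ligated and 37 in sham mice (0.548, 0.318 to 0.929), and had 45 counts in ligated and 33 in sham mice at day 8 (1.41, 0.881 to 2.28). The intervals of the other members below the filter included 1 on both days: Ifi27, Ifi35, Ifi44, Dhx58, Mx1, Oas2, Oasl1, Usp18, Rtp4 and Xaf1. Mx1, a GTPase known as a marker of interferon response, had 8 counts in ligated and 5 in sham mice at day 15 and 8 in ligated and 11 in sham mice at day 8. Cxcl10, a chemokine that draws T cells, had 2 counts in ligated and 0 in sham mice at day 15 and 3 in ligated and 2 in sham mice at day 8, at or under the floor of 3 counts per group.

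**Figure D4:**
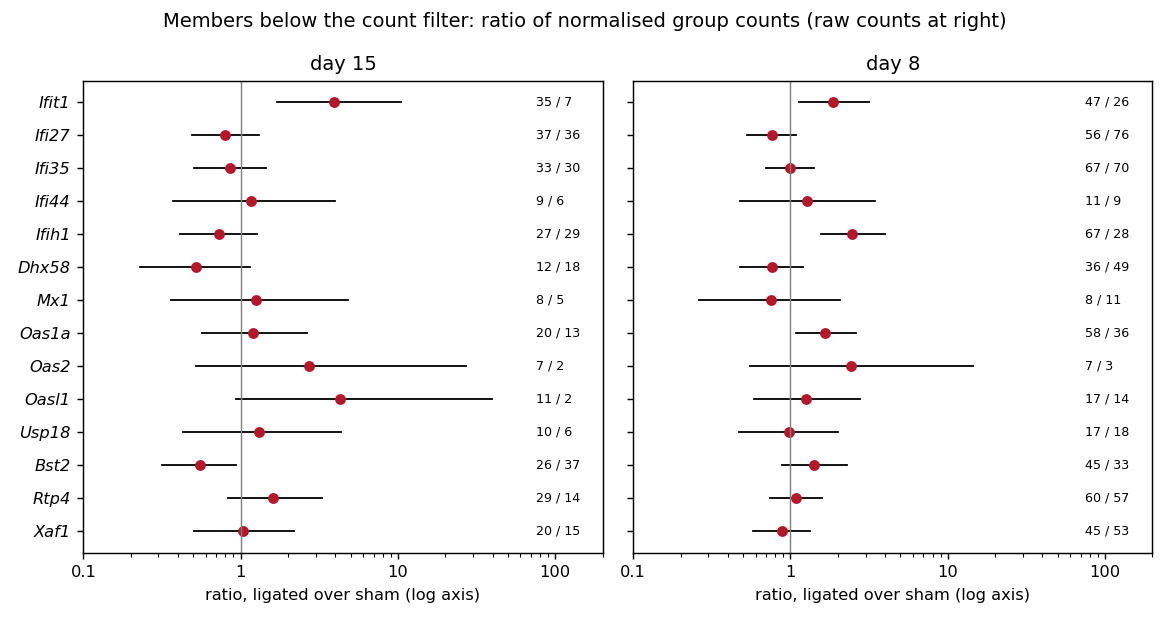
Ratio of summed normalised counts, ligated over sham (log axis), for 14 members below the count filter, with exact 95% intervals for counting error and the raw counts of ligated and sham mice at the right. The intervals of Ifit1 lie above 1 on both days, and those of Ifih1 and Oas1a at day 8 only. That of Bst2 lies below 1 at day 15.

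Upstream of the members, the 21 interferon genes in the table together held 8 counts in ligated and 1 in sham mice at day 15, and 3 in ligated and 6 in sham mice at day 8, so none could be tested. Ifnb1 had 0 counts in all groups. Of 6 receptor subunits 1 was tested, Ifngr2 of the interferon gamma receptor, and it was not called at either day. Of 9 tested genes of JAK-STAT signalling, Socs3, an inhibitor of the pathway that IL-6 also induces, was called at both days. Socs3 ran from 29.0 to 64.9 CPM (median 47.9) in ligated and from 8.54 to 27.0 (median 17.9) in sham mice at day 15, and the groups did not overlap. At day 8 it ran from 18.2 to 64.6 CPM (median 37.9) in ligated and from 7.04 to 19.1 (median 15.4) in sham mice. It rose by 1.34 on the log2 scale (SE 0.34, adjusted p = 0.0130) at day 15 and 1.39 (SE 0.32, adjusted p = 0.0137) at day 8. The phosphatase Ptpn6 was not called for ligation, and fell by 1.05 (adjusted p = 0.0317) at day 15 against day 8 in ligated mice. Of 9 tested genes of nucleic acid sensing, 0 were called in any ligation comparison. Over all genes 4.55% were called at day 15, 3.14% at day 8 and 10.6% in the mean of both days. With 9 genes in each list, these counts are too small to be read as a result about either list.

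Among 31 tested genes of a list of other interferon-induced genes, 4 were called at day 8, all higher, and 0 at day 15. Over all genes 3.14% were called at day 8 and 4.55% at day 15, as given above. Isg20, an RNA exonuclease, ran from 203 to 405 CPM (median 217) in ligated and from 70.4 to 186 (median 93.5) in sham mice at day 8, without overlap, and rose by 1.23 on the log2 scale (SE 0.25, adjusted p = 0.00777). Ube2l6, which carries ISG15 to its targets, ran from 275 to 557 CPM (median 376) in ligated and from 95.2 to 259 (median 187) in sham mice, again without overlap, and rose by 1.15 (adjusted p = 0.0241). Ifi204, a DNA sensor of the IFI200 family, ran from 31.2 to 54.3 CPM (median 46.4) in ligated and from 7.04 to 30.2 (median 16.7) in sham mice, and rose by 1.23 (adjusted p = 0.0189). Ifitm6, a relative of Ifitm3 that is known from myeloid cells, overlapped between groups and rose by 1.62 (adjusted p = 0.0377). The same 4 were called in the mean of both days, with 1.17 for Ifi204, 0.96 for Ifitm6, 0.71 for Ube2l6 and 0.58 for Isg20, where 10.6% of all genes were called. In ligated mice at day 8, libraries 1 and 2 held the highest values of Isg20 and Ube2l6, and not of Ifi204 or Ifitm6. Refits without 1 library were not examined for these genes. The list's median was 0.14 at day 8, against 0.02 over all genes, and -0.07 against -0.02 at day 15. Isg20 (-1.09), Ifi27l2a (-0.97), Uba7 (-1.29) and Dtx3l (-0.75) were called lower at day 15 than at day 8 in ligated mice, 4 of 31 against 2.09% of all genes.

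Of 15 tested genes known mainly from interferon gamma, 1 was called at day 8, the GTPase Iigp1, where 3.14% of all genes were. Iigp1 ran from 5.99 to 169 CPM (median 40.3) in ligated and from 0 to 17.2 (median 7.82) in sham mice, and rose by 2.46 (SE 0.68, adjusted p = 0.0385). It too was highest in ligated libraries 1 and 2 of day 8, and refits without 1 library were not examined for it. Its mean over both days was 1.53 (adjusted p = 0.0277), the 1 call of 15 in a comparison that called 10.6% of all genes. The list's median was 0.41 at day 8 against 0.02 over all genes, and 0.01 at day 15 against -0.02. In ligated mice the chemokine Ccl5 was called higher (1.06) and Ciita, the master regulator of MHC class II, lower (-1.22) at day 15 than at day 8. That comparison called 2.26% of all genes higher and 2.09% lower.

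**Figure D5:**
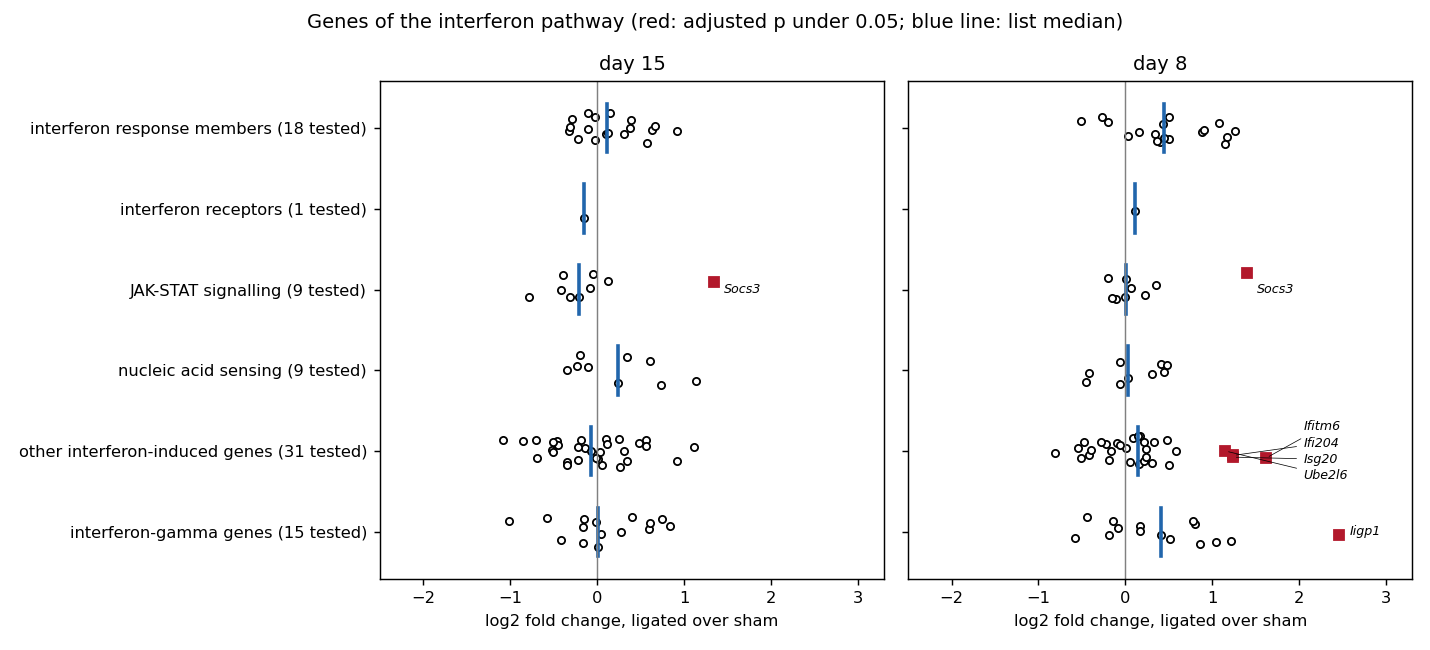
Log2 fold change of ligated over sham mice (horizontal axes) at day 15 and day 8 for the tested members and 5 lists of other interferon pathway genes, with 1 point per gene, a small vertical jitter, a blue line at the list median and red squares for genes called by edgeR. Socs3 is called on both days, and Isg20, Ube2l6, Ifi204, Ifitm6 and Iigp1 at day 8 only.

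Markers of some of the cells that could have supplied the RNA moved with ligation too. Over all genes 4.55% were called at day 15, 3.14% at day 8 and 10.6% in the mean of both days. Hepatocyte markers, 7 of 7 tested called higher on each day, summed to 3079.7 to 22933 CPM in ligated and 32.2 to 162 in sham mice at day 15, and to 391 to 5571 in ligated and 30.2 to 134 in sham mice at day 8, where Fgb had 0 counts in sham mice. Monocyte markers ran from 811 to 1253 CPM in ligated and from 342 to 1195 in sham mice at day 15, and from 755 to 1772 in ligated and from 464 to 1114 in sham mice at day 8. Of these, 2 of 7 tested were called on each day, Ccr2 and Fn1 at day 15 and Ccr2 and Chil3 at day 8. Neutrophil markers summed to 567 to 1926 CPM in ligated and 119 to 4545 in sham mice at day 15, and to 749 to 2150 in ligated and 134 to 1377 in sham mice at day 8, with 1 of 6 tested called, Retnlg at day 8. Red cell markers were called higher at day 8 in 7 of 7 and at day 15 in 0 of 7, with sums of 86333 to 199181 CPM in ligated and 55931 to 82998 in sham mice at day 8. Kupffer cell markers, of which 0 were tested, summed to 51.9 to 141 CPM in ligated and 31.8 to 155 in sham mice at day 15 and to 52.7 to 127 in ligated and 28.5 to 74.4 in sham mice at day 8. Most Kupffer cell counts came from C1qa, C1qb and C1qc in each group. Markers of plasmacytoid dendritic cells, the main source of interferon alpha, summed to 107 to 174 CPM in ligated and 111 to 318 in sham mice at day 15 and to 133 to 275 in ligated and 143 to 312 in sham mice at day 8. Most of these counts came from Tcf4 and Spib. Siglech and Ccr9 had few counts, and more in ligated than in sham mice on each day, so the sums do not describe every marker of the list. Platelet markers, of which 0 of 8 were called for ligation, summed to 1020 to 1778 CPM in ligated and 784 to 2390 in sham mice at day 15, and to 1204 to 7836 in ligated and 899 to 6681 in sham mice at day 8. Of the B cell markers 3 of 3 tested were called lower in the mean of both days. Their part in the interferon values was not tested, and in bulk vesicle RNA fewer cells of a type and less RNA released per cell cannot be told apart.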

How the data were processed

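Plasma vesicle RNA of 24 libraries, 6 in each of 4 groups, was analysed from the authors' deposited table of expected counts per gene, all whole numbers. STAR and RSEM are named in the submitters' processing notes, without versions; the annotation and the rounding are not stated. Those notes name the human build hg38, although the gene identifiers are mouse.

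Expected counts were fitted with edgeR 4.0.16 (limma 3.58.1, R 4.3.3): filterByExpr with a minimum count of 10 and a minimum total of 15, TMM normalisation, 1 mean per group over all libraries, the quasi-likelihood F-test and Benjamini-Hochberg adjustment over the 4112 tested genes, with a threshold of 0.05. CPM were counts per 1e6 of the TMM-scaled total of tested genes. Standard errors came from the fit's weights and dispersion. Ratios of summed counts carry exact 95% Clopper-Pearson intervals, which cover counting error only. Python 3.11.15 with numpy 2.4.6, pandas 2.3.3, scipy 1.17.1 and matplotlib 3.10.9 was used for summaries and plots. The fit was tested on simulated data.

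Members and lists were chosen with earlier results of these data known. Full values are given for members called in any comparison and then those of smallest p for the mean ligation effect, up to 8 in all. Up to 3 called genes per list and comparison are named by smallest p; Ifitm6 at day 8 and in the mean and Dtx3l in the time comparison exceed that and were named after their values were seen, as were Trim25 and the markers. Of 2 genes of the JAK-STAT list called lower over time in ligated mice, 1 is not reported here. Alternatives were DESeq2 1.42.0, other scaling, no filter, the library number as a block, only the groups compared, day 8 libraries 1 to 3 and 4 to 6, and each library left out. Correlations between the deviations of same-numbered libraries all exceeded 0.1 at day 8 (0.165 to 0.327) and not at day 15 (-0.031 to 0.113). Libraries of different numbers were not compared, so pairing was not shown. The block was fitted at both days.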

Additional observations from a re-analysis of the deposited data

Results flagged for a closer look

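In 3 of 36 sets of 6 libraries, 32 for the 8 members described in full and 4 for the summed share of all 33 members, each in 4 groups, 1 library stood apart from its group by Dixon's criterion (the gap to the nearest library over the group's range), and chance flags about 1 in 20 such sets. Irf7 reached 92.9 CPM in ligated library 4 of day 15, against 38.2 to 58.3 CPM in the other 5. Ifitm3 reached 321 CPM in ligated library 1 of day 15, where the other 5 ran from 175 to 203 CPM. Oas3 reached 96.8 CPM in ligated library 2 of day 8, where the other 5 ran from 31.7 to 54.3 CPM.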

How the results depend on the processing

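Low counts limit these results: 15 of 33 members could not be tested, and the depth differs up to several-fold within the day 8 groups. The number of members called higher in the mean of both days was 1 with upper-quartile scaling and 5 with no filter, and that at day 8 was 3 with no filter, 3 with the replicate block, 1 in libraries 1 to 3 and 1 with DESeq2. With no filter, 3 members were called lower at day 15 than at day 8 in ligated mice. Leaving out each library in turn gave 0 to 4 members called higher in the mean, 0 to 2 at day 8 and 0 to 1 lower in that time comparison.

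Over all genes, no filter called 553 higher and 135 lower at day 15, 263 and 35 at day 8, 817 and 224 in the mean, 22 and 29 in the interaction, 377 and 275 over time in ligated mice and 38 and 112 over time in sham mice. The replicate block called 71 lower at day 15, 33 lower at day 8 and 1 higher in the interaction. Day 8 libraries 1 to 3 called 44 higher and 1 lower, and libraries 4 to 6 called 4 higher and 0 lower. DESeq2 called 24 lower at day 8, 1 higher in the interaction, and 1 higher and 4 lower over time in sham mice. Leaving out 1 library gave 100 to 171 higher and 24 to 59 lower at day 15, 52 to 136 and 4 to 16 at day 8, 238 to 345 and 109 to 170 in the mean, 0 to 2 higher in the interaction, 29 to 160 and 5 to 176 over time in ligated mice and 0 to 1 and 0 to 4 over time in sham mice. The cause was not tested.

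Without Lars2 and hemoglobin counts, the members' share of counts differed by -0.0196 percentage points at day 15 and 0.0797 at day 8. Those counts averaged 54.2% of the total in ligated and 54.9% in sham mice at day 8, so these values are on a larger scale. On it, ligated libraries of day 8 ran from 0.126% to 0.549% and sham libraries from 0.245% to 0.281%. With all counts, leaving out each library gave differences of -0.00764 to -0.000733 at day 15 and 0.0158 to 0.0425 at day 8. Leaving out Rsad2 from that share was chosen after seeing the data. The sign turned for values that were not called, when 1 library was left out: the interaction of Zbp1 ran from -0.37 to 0.14, with 0.01 without sham library 2 of day 15 and 0.02 without sham library 5 of day 8. That of Irf7 ran from -0.45 to 0.069 and that of Oas3 from -0.032 to 0.48, and Gbp2 at day 15 ran from -0.0045 to 0.27. No paired analysis was possible for day 15 against day 8 because the numbers sit within a day.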
